A study of Mus musculus with 2 samples.

Results

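Mitotic CD8 T cells of B16 melanomas were examined in single-cell RNA from lean and obese mice. Member cells were selected on measured values: at least 10 unique molecular identifiers (UMIs, each marking 1 captured mRNA molecule) summed over Top2a, Mki67 and Birc5, and under 3 UMIs summed over Gzmc, Gzmd, Gzme, Gzmf, Gzmg and Gzmn, among cells with under 7.5% mitochondrial UMIs and between 500 and 50000 UMIs in total. The rule took 559 of 4745 cells, 222 of 2456 from the lean library and 337 of 2289 from the obese library. Because the 9 genes of the rule and the mitochondrial limit chose the cells, the levels of these genes and of the mitochondrially encoded genes are given as a description only.

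The lean library came from male C57BL/6J mice on normal chow (NC) and the obese library from male C57BL/6J mice on a western diet (WD), all 16 weeks old, with the diets given for 12 weeks. All mice carried a transplanted subcutaneous B16 tumor, and CD8+ tumor-infiltrating lymphocytes (TIL) were enriched and sorted on day 14. How many mice were pooled into each library was not given in the sources used here. There was 1 library per diet, so diet and library cannot be told apart, no test between diets was possible, and every interval below is a 95% interval that covers counting error only. The lean member cells held 4988151 UMIs in all and the obese member cells 8564552 UMIs.

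A T cell that divides first copies its DNA in S phase, packing the new strands with histones made at that time, and then separates the copies in mitosis. Cyclin-dependent kinase 1 with cyclins A and B starts mitosis, condensins and topoisomerase II shape the chromosomes, kinetochores and kinesins attach and move them, and the anaphase-promoting complex releases them. Antigen-driven CD8 T cells are known to divide while they make granzymes, perforin and cytokines, and in tumors dividing cells are often found among those with checkpoint receptors.

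Genes of mitosis are known to share 2 promoter elements: the cell cycle homology region (CHR), bound by the DREAM and MuvB complexes, and CCAAT boxes, bound by NF-Y. The promoters of the genes that chose the cells, and of the 3 most abundant other mitosis genes with a CHR match, are shown because these genes mark the cells. Each window holds 250 bases before and 50 after the RefSeq start (build GRCm38.p6), 5′ to 3′ on the gene's strand, and capitals mark the CHR letters (TTTGAA or TTCGAA) and the CCAAT letters on either strand. The Top2a window is chr11:99024140-99024439, minus strand. The Mki67 window is chr7:135716330-135716629, minus strand. The Birc5 window is chr11:117848987-117849286, plus strand. The Hmgb2 window is chr8:57511593-57511892, plus strand. The Ube2s window is chr7:4812291-4812590, minus strand. The Tubb4b window is chr2:25224653-25224952, minus strand.
Top2a: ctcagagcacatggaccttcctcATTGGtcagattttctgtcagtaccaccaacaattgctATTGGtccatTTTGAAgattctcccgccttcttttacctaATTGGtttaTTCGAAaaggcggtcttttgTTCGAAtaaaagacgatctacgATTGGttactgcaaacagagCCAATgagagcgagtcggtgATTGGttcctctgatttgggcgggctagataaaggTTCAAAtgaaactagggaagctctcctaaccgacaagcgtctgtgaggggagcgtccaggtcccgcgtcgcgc
Mki67: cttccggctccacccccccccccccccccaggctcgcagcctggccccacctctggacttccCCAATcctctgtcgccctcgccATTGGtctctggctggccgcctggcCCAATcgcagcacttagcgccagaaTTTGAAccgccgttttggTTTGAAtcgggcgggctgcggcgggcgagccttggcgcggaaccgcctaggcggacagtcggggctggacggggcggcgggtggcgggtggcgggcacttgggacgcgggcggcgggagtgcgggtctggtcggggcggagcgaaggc
Birc5: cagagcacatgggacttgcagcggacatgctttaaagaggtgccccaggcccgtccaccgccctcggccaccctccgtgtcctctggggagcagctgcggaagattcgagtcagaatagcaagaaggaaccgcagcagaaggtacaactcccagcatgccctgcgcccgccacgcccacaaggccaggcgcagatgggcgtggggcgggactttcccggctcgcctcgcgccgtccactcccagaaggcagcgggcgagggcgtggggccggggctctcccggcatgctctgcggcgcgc
Hmgb2: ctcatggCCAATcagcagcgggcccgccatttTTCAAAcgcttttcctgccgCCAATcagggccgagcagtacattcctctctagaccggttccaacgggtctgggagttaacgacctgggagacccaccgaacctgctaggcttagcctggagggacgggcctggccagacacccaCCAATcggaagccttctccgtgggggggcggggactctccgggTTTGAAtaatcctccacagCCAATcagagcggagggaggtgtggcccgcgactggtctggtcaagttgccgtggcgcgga
Ube2s: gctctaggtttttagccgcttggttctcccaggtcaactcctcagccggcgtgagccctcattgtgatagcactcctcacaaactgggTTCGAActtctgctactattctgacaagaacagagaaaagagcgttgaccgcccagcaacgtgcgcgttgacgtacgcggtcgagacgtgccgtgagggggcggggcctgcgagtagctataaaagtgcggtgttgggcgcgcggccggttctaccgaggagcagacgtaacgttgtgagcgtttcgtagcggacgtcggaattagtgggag
Tubb4b: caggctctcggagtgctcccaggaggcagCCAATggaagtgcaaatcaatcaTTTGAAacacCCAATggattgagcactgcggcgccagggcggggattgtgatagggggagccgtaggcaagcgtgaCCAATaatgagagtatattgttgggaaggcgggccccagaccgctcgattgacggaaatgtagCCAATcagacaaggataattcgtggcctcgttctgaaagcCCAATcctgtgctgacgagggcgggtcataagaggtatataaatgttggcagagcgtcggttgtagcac

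The Top2a window held 4 CHR matches and 6 CCAAT matches, the Mki67 window 2 and 3, and the Birc5 window neither set of letters. In the Mki67 window the CHR matches began 116 and 98 bases before the start. Among 118 promoters of the mitosis lists (104 of 126 genes matched), 54.2% held TTTGAA or TTCGAA, against 19.2% of all 32851 promoters of the same length. CCAAT was found in 62.7% of them and in 37.4% of all promoters. Of 37 promoters of the DNA replication list 64.9% held CCAAT, close to the mitosis lists, 18.9% held a CHR match, and 40.5% held TTTGGCGC, TTTCCCGC or TTTCGCGC, letters of E2F sites, against 1.84% of all promoters and 9.32% of those of the mitosis lists. Of the cytotoxic effector promoters 21.4% of 14 held a CHR match. A match of letters is a description and does not show binding.

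Of the 3 genes that chose the cells by a lower limit, Top2a and Mki67 were at similar levels in the libraries and Birc5 was lower in the obese cells. Top2a, topoisomerase II alpha, was at 709 CPM (UMIs of the gene scaled to an equal total in each library) in the lean and 701 CPM in the obese member cells. Mki67, the Ki-67 protein of the chromosome surface, was at 359 and 353 CPM. Birc5, the survivin subunit of the chromosomal passenger complex, was at 521 CPM (501 to 541) in the lean and 446 CPM (432 to 460) in the obese cells. The median sum over these genes was 29 UMIs per lean cell and 33 per obese cell, with quartiles of 17.25 and 47.75 in the lean and 17 and 51 in the obese library. Just inside the threshold, 5 lean and 8 obese cells had exactly 10 UMIs, and just outside it 9 lean and 19 obese cells had 9. On the granzyme side, 16 lean and 8 obese member cells had 2 UMIs of the Gzmc to Gzmn genes, and 10 lean and 0 obese cells with 3 UMIs fell outside.

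Member cells carried the markers of CD8 T cells. A Cd8a or Cd8b1 UMI was found in 220 of 222 lean and 337 of 337 obese member cells, and a Cd3e UMI in 220 and 331. Cd4 was found in 1 lean and 5 obese cells. Melanoma genes were nearly absent, with 3 UMIs in the lean and 8 in the obese cells over 8 genes, and all 4 neutrophil genes were at 0 in both libraries. Tyr, Tyrp1 and Sox10 were at 0 in the member cells. The macrophage and monocyte list was at 29.1 CPM in the lean and 40.5 CPM in the obese cells, led by Fcer1g (36 UMIs) in the lean and Tyrobp (140 UMIs) in the obese library. The obese Tyrobp UMIs lay in 8 cells, and 1 cell held 78 of them. CD4 and regulatory T cell genes summed to 12 and 43 UMIs, NK and gamma-delta T cell genes to 6 and 38, stromal genes to 39 and 91, and red cell genes to 0 and 7, in raw UMIs that were not scaled to the larger obese total.

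B cell transcripts were higher in the obese member cells. The list summed to 21.3 CPM in the lean and 89.4 CPM in the obese cells, led by Ighm with 81 and 431 UMIs, and the B cell marker Ms4a1 was at 0 in both libraries. Igkc, the kappa light chain of antibodies, was found in 6 of 222 lean cells and 71 of 337 obese cells. In non-dividing cells Igkc was at 15.2 CPM in the lean and 36.5 CPM in the obese library, so the transcript was not limited to the member cells. The whole list was at 84.4 CPM in lean and 124 CPM in obese non-dividing cells, above the members of each library. After cells were thinned to an equal UMI total, an Ighm UMI was found in 10.5% (6.72 to 15.5) of lean and 16.8% (12.9 to 21.3) of obese members. In non-dividing cells these Ighm shares were 24.8% and 29.8%. The dendritic list, mostly Cd74, was at 118 and 97.5 CPM, and Flt3 and Clec9a were at 0. Other genes of that list lay on both sides, with H2-Aa at 5.21 and 8.29 CPM, Itgax at 1.60 and 2.34 CPM, H2-Ab1 at 9.42 and 9.81 CPM and H2-Eb1 at 12.03 and 7.94 CPM. Siglech had 0 lean UMIs and 46 obese UMIs, which lay in 2 cells. Whether transcripts from other cells have a part in the comparisons below was not tested. Cells with Cd8a or Cd8b1 and without Cd4, Cd79a, Lyz2 and Pmel (213 lean, 322 obese) gave a log2 ratio of obese over lean of -0.70 for the sum of Gzmb, Prf1 and Ifng and -0.53 for histones, against -0.73 and -0.54 in all members.

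Mitotic cells made up a larger share of the obese library. They were 9.04% (95% exact binomial interval 7.93 to 10.2) of lean and 14.7% (13.3 to 16.2) of obese cells, and the intervals did not overlap. The size of this gap moved with the rule. With mitotic cells of any Gzmc to Gzmn count, the shares were 13.3% and 16.3% (14.8 to 17.9), since 104 lean but 37 obese mitotic cells held 3 or more of these UMIs. When every cell was thinned to 5000 UMIs and 5 or more thinned UMIs of Top2a, Mki67 and Birc5 were asked for, the shares were 10.2% (8.87 to 11.6) and 12.8% (11.3 to 14.4), and the intervals overlapped. At 50000 UMIs or more another 11 lean and 71 obese cells met the other limits, and with these the shares were 9.18% (8.08 to 10.4) and 16.9% (15.5 to 18.5).

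**Figure D1:**
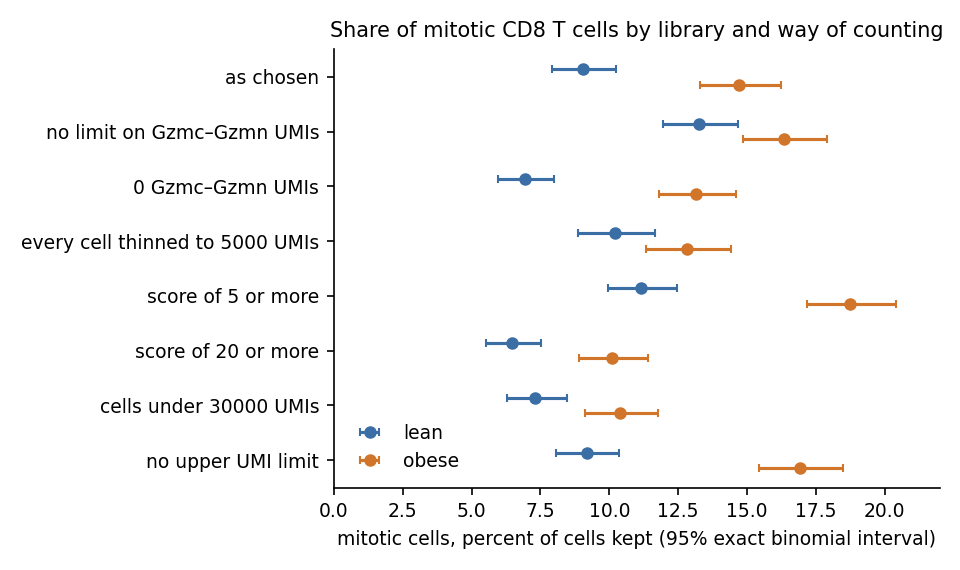
Share of cells that were mitotic (x axis, percent of the cells kept) in the lean (blue) and obese (orange) library under 8 ways of counting (y axis), with 95% exact binomial intervals that cover counting error only. The obese share was higher in all 8, from 12.8% against 10.2% after thinning to 16.9% against 9.18% without an upper UMI limit.

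Member cells held more UMIs than non-dividing and Mcm-rich cells and fewer than mitotic cells with 3 or more Gzmc to Gzmn UMIs. The latter are called Gzmc-positive or Gzmc mitotic cells below, by that sum and not by Gzmc alone. A Gzmc UMI was also found in 15.3% of lean and 8.31% of obese members. The median was 21253 UMIs per lean and 24773 per obese member cell, against 6684 and 7251 in non-dividing cells (0 UMIs of Top2a, Mki67 and Birc5), 16000 and 16622.5 in Mcm-rich cells (10 or more UMIs over Mcm2 to Mcm7 and Pcna, under 3 of Top2a, Mki67 and Birc5, 100 lean and 130 obese cells), and 33439.5 and 34683 in mitotic cells with 3 or more Gzmc to Gzmn UMIs. Because the rule counts UMIs, deeper cells enter it more easily, and depth and RNA content cannot be told apart. The median mitochondrial share was 1.85% in the lean and 2.41% in the obese member cells. No barcode was shared between the member cells of the libraries, and 4 were shared among all deposited cells.

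The members ranged from cells rich in replication transcripts to cells rich in late mitosis transcripts. For each cell the UMIs of 7 late mitosis genes (Ccnb1, Ccnb2, Cdc20, Plk1, Aurka, Cenpe and Cenpf) were set against those of 7 replication genes (Mcm2 to Mcm7 and Pcna). Late mitosis UMIs outnumbered replication UMIs in 82 of 222 lean cells (36.9%, 30.6 to 43.7) and in 100 of 337 obese cells (29.7%, 24.8 to 34.9), and these intervals overlapped. The median late share per cell was 36.6% in the lean and 28.6% in the obese library. In 23 lean and 28 obese cells the sums lay within 2 UMIs of each other, so the split is a range and not a set of cell types. The word mitotic is therefore used for the rule, which also took cells with replication transcripts.

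**Figure D2:**
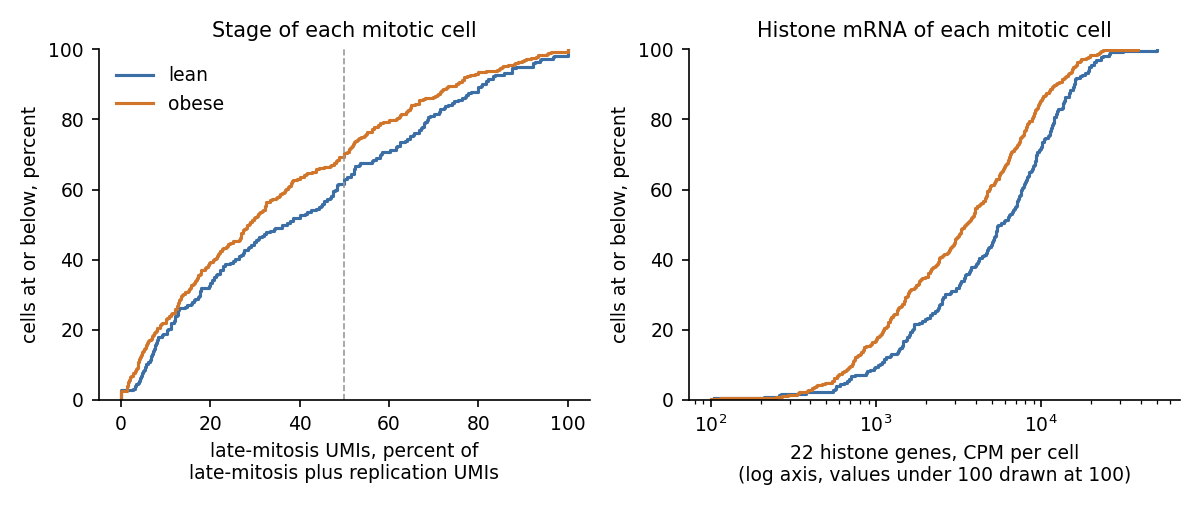
Cumulative share of member cells (y axis, percent) by the late mitosis share of their late mitosis and replication UMIs (left, percent) and by the summed CPM of 22 histone genes (right, log axis), lean in blue and obese in orange. The median cell was at 36.6% in the lean and 28.6% in the obese library on the left, and at 5556 and 3503 histone CPM on the right.

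Mitosis and histone genes stood highest in the members over non-dividing cells, which held 0 UMIs of Top2a, Mki67 and Birc5. Because the same genes chose both groups, much of this contrast was set in advance, and the counts are a description. The 10 genes highest over non-dividing cells, by the lower of the libraries' ratios, were Hist1h2ab, Hist1h3c, Pclaf, Hmmr, Nusap1, Ccna2, Cenpf, Tpx2, Rrm2 and Cdca8. Pclaf, a partner of the replication clamp PCNA, stood 7.24 log2 units over non-dividing cells in the lean and 7.28 in the obese library. Ccna2, cyclin A2, stood 7.39 and 7.05 log2 units over them. Of 6861 genes with a mean of at least 10 CPM, 10.8% were 2-fold or more above non-dividing cells in both libraries, and of 121 mitosis genes tested other than those of the rule 108 were. So were 36 of 37 DNA replication genes, 12 of 17 nucleotide synthesis genes, 11 of 18 DNA damage genes and 11 of 21 G1 cyclins and CDK inhibitors. Metabolic lists split: 10 of 22 cholesterol synthesis genes and 7 of 17 glycolysis genes were that much higher, but 1 of 56 nuclear genes of oxidative phosphorylation. Of 14 cytotoxic effectors, 8 checkpoint receptors and 18 immediate early genes, 0 were.

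Among cells chosen by the same lower limit on Top2a, Mki67 and Birc5, the other mitosis genes differed little between the libraries. The rule alone can hold genes expressed with these at similar levels, so the values are a description. Over 123 mitosis genes without Top2a, Mki67 and Birc5, the summed level was 22970 CPM in the lean and 22676 CPM in the obese member cells, a log2 ratio of obese over lean of -0.02 (-0.03 to -0.01). Of 121 tested, 0 were 1.5-fold or more higher and 1 was 1.5-fold or more lower, with a median log2 ratio of -0.06. Over all 6861 genes tested, 2.3% were 1.5-fold or more higher, 2.06% were lower by that much, 4.36% in either direction, 53.1% were on the high side (a ratio above 0), and the median was 0.02. The sign of the sum changed with the rule: it was 0.11 after thinning, 0.05 without the granzyme limit and 0.09 in the cells with more late mitosis than replication UMIs.

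Genes of mitotic entry were slightly lower in the obese cells, 13 of 14 on the low side and 1 on the high side, against 53.1% of all genes tested on the high side, with a median log2 ratio of -0.17. Cdk1, the kinase that starts mitosis, was at 196 CPM in the lean and 170 CPM in the obese cells (-0.20, -0.32 to -0.08). Cdc25c, a phosphatase that activates it, was at 17.8 and 9.69 CPM (-0.88, -1.33 to -0.43), the largest difference among the mitosis genes. Ccnb1, cyclin B1, was at 68.8 and 70.3 CPM (0.03, -0.16 to 0.23). In cells with more late mitosis than replication UMIs, Cdk1 was on the other side (0.04) and Ccna2 too (0.13). Of the 14 genes 8 were on the low and 6 on the high side there, against 52.7% of all genes tested on the high side.

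Genes that carry out chromosome segregation kept close to equal levels, in cells that all passed the same limit on Top2a, Mki67 and Birc5. Of 23 kinetochore and centromere genes 10 were on the high and 13 on the low side, with a median of -0.01. Cenpa, the histone H3 variant of centromeres, was at 387 and 313 CPM (-0.30, -0.39 to -0.22), and Spc25 of the NDC80 complex at 105 and 78.5 CPM (-0.42, -0.58 to -0.25). The aurora kinases differed from each other, with Aurka at 40.1 and 29.8 CPM and Aurkb at 89.0 and 88.5 CPM. Of 27 kinesin and spindle genes 20 were on the low side, led by Aspm, a spindle pole protein, at 69.4 and 49.5 CPM (-0.49). The direction of that list was not stable: in cells with more late mitosis than replication UMIs 20 of the 27 were on the high side, against 52.7% of all genes tested in those cells. Its sum went from -0.06 to 0.05 there and to 0.11 after thinning. In those late cells 18 of the 23 kinetochore genes were on the high side as well, against the same 52.7%. Condensin, cohesin and chromosome genes without Top2a and Mki67 had 10 of 14 on the high side and 0 past 1.5-fold, against 53.1% and 4.36% of all genes tested. Among them Smc4, a condensin subunit, was at 360.5 and 399.8 CPM and Hmgb2, a DNA-bending protein, at 3644 and 3878 CPM. All 6 spindle checkpoint genes lay between -0.12 and 0.11. Medians were -0.03 for 6 mitotic transcription factors, -0.01 for 7 passenger complex and aurora genes without Birc5, -0.07 for 17 anaphase-promoting complex genes and -0.05 for 8 cytokinesis genes. In these 4 lists 0 genes were past 1.5-fold, against 4.36% of all genes tested.

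DNA replication genes were slightly higher in the obese cells. The list summed to 3348 CPM in the lean and 3638 CPM in the obese member cells (0.12, 0.09 to 0.15). Of 37 genes tested 30 were on the high side and 0 past 1.5-fold, against 53.1% and 4.36% of all genes tested. In members without an excess of late mitosis UMIs, which were 63.1% of lean and 70.3% of obese members, the ratio was 0.05 (0.02 to 0.08) with 22 of 37 on the high side, against 51.9% of all genes. In members with more late mitosis UMIs it was 0.14 (0.07 to 0.21). Mcm2 to Mcm7 and Pcna, genes of this list, define that split, so the values within each stage are a description, and the stages were not compared by a test. Mcm7 of the replicative helicase was at 240 and 289 CPM (0.27, 0.17 to 0.37). Gins2, another helicase subunit, was at 44.5 and 59.7 CPM (0.42, 0.19 to 0.66). Uhrf1, which carries DNA methylation across replication, was at 71.2 and 91.5 CPM (0.36, 0.18 to 0.55). Pcna, the replication clamp, was at 359 and 392 CPM (0.12). Nucleotide synthesis genes, which supply the DNA building blocks, had 14 of 17 on the high side, against 53.1% of all genes tested, and a median of 0.11.

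Histone mRNA went the opposite way. The 22 replication-dependent histone genes summed to 6427 CPM in the lean and 4432 CPM in the obese member cells (-0.54, -0.56 to -0.52). Of the 22 genes, 21 were on the low side and 9 were lower by 1.5-fold or more, against 2.06% of all genes tested. Hist1h1b, linker histone H1.5, was at 1113 and 798 CPM (-0.48, -0.53 to -0.43). Hist1h1e, linker histone H1.4, was at 832 and 532 CPM (-0.65, -0.71 to -0.58). Hist1h4d, a histone H4 gene, was at 724 and 457 CPM (-0.67, -0.73 to -0.60). Hist1h2ap showed the widest gap of the list, 483 and 232 CPM (-1.06, -1.14 to -0.97). Hist1h1c alone was on the high side, at 280 and 283 CPM, and is known to be made outside S phase as well.

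The histone difference was found at each stage and across cells. In cells with more late mitosis UMIs the list was at 8072 CPM in the lean and 5863 CPM in the obese library (-0.46, -0.50 to -0.43), and in the remaining members at 5651 and 3936 CPM (-0.52, -0.55 to -0.50). Per cell, the median was 5556 CPM (quartiles 2300 and 10901) in the lean and 3503 CPM (1341 and 7566) in the obese members. Most replication-dependent histone mRNAs end in a stem-loop without a poly(A) tail, and libraries primed on poly(A) capture only part of them. Histone genes also resemble each other closely, so the split of reads between single genes is uncertain. Whether capture or RNA handling differed between the libraries was not tested.

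Most effector genes were lower in the obese mitotic cells, to differing degrees. The whole list of 15 genes summed to 11438.5 CPM in the lean and 8842 CPM in the obese member cells (-0.37, -0.39 to -0.36). Over 15 alternatives this ratio ranged from -0.406 to -0.132. Of 14 genes tested 11 were on the low side and 3 on the high side, against 53.1% of all genes tested on the high side, with a median of -0.29. Gzmb, Prf1 and Ifng together were at 2124 CPM in the lean and 1283 CPM in the obese cells (-0.73, -0.77 to -0.69). Gzmb, the granzyme that cleaves caspases in target cells, was at 1067 and 628 CPM (-0.76, -0.82 to -0.71). Prf1, the pore-forming perforin, was at 365 and 142 CPM (-1.37, -1.47 to -1.26). Ifng, interferon gamma, was at 692 and 513 CPM (-0.43, -0.50 to -0.37). Per cell, the median sum of the 3 genes was 1520 CPM in the lean and 974 CPM in the obese members.

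The perforin difference was also seen in the share of cells. After thinning to 5000 UMIs, which left out 13 lean and 9 obese members, a Prf1 UMI was found in 58.4% (51.4 to 65.1) of lean and 40.2% (34.9 to 45.8) of obese member cells. Unthinned, it was found in 82.0% and 68.2%. As a background, thinned non-dividing cells with UMIs of both Ccr7 and Lef1, which have naive features, gave 17.4% and 13.7% at median depths of 7478.5 and 8339 UMIs before thinning. For Gzmb the thinned shares were 75.6% (69.2 to 81.3) and 66.2% (60.8 to 71.3) in the members and 13.3% and 8.47% in that background. Ifng and Ccl4 did not show such a gap in shares. An Ifng UMI was found in 80.4% (74.3 to 85.5) of lean and 80.2% (75.5 to 84.4) of obese thinned members, against 21.99% and 23.8% in that background, and unthinned in 91.4% and 94.4%. For Ccl4 the thinned shares were 68.9% and 68.0%, against 21.99% and 27.0% in that background.

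Of the 14 effector genes tested, Gzma, Prf1, Ccl3, Gzmb and Ccl4 (5 genes) were lower by 1.5-fold or more, against 2.06% of all genes tested, and 0 were higher by that much. The chemokine Ccl3 was at 1172 and 639 CPM (-0.88, -0.93 to -0.82) and Ccl4 at 1500 and 932 CPM (-0.69, -0.73 to -0.64). Nkg7, a granule protein of killer cells, was at 1951 and 1466 CPM (-0.41). Ccl5, the most abundant chemokine, was at 2805 CPM in the lean and 2857 CPM in the obese cells (0.03, -0.00 to 0.06), so the secreted genes did not move as 1 block. Gzma, at 126 and 35.1 CPM, rested on 2 lean cells that held 80.0% of its lean UMIs. Without the 2 richest cells of each library it was at 25.5 and 23.4 CPM (-0.12).

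**Figure D3:**
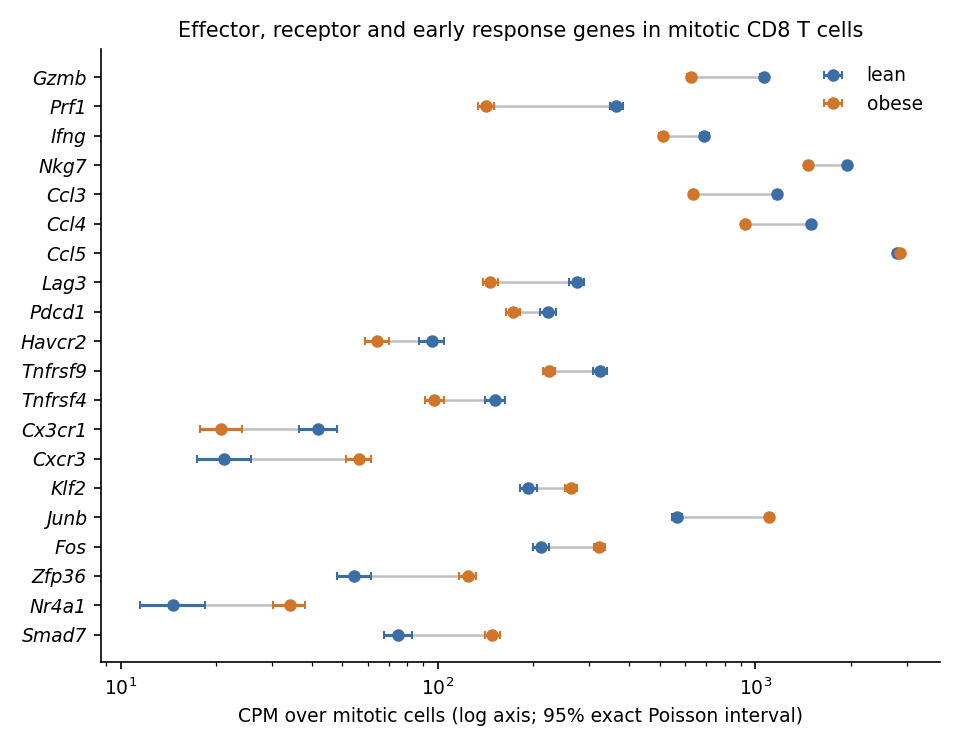
CPM over member cells (x axis, log scale) in the lean (blue) and obese (orange) library for 20 genes of effector function, receptors and early response, chosen after their values were seen, with 95% exact Poisson intervals. Prf1 stood at 365 and 142 CPM and Junb stood at 568 and 1102 CPM, while the Ccl5 points touch.

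Checkpoint receptors were lower together with the effectors. The list summed to 866 CPM in the lean and 640 CPM in the obese member cells (-0.44, -0.49 to -0.38), and 3 of 8 genes tested were 1.5-fold or more lower, against 2.06% of all genes tested. Lag3, which binds MHC class II, was at 273 and 146 CPM (-0.90, -1.01 to -0.79). Pdcd1, which encodes PD-1, was at 222 and 172 CPM (-0.36, -0.48 to -0.25). Havcr2, which encodes TIM-3, was at 95.8 and 64.3 CPM (-0.57, -0.75 to -0.40). Ctla4 was on the other side at 95.03 and 109 CPM, and Cd200r1 was 1.5-fold or more higher at 12.8 and 21.3 CPM. After thinning, a Lag3 UMI was found in 63.6% (56.7 to 70.2) of lean and 47.9% (42.3 to 53.4) of obese members, and in 7.05% and 4.44% of the naive-featured background.

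Among costimulatory receptors Tnfrsf9, which encodes 4-1BB, was at 325 and 224 CPM (-0.54, -0.63 to -0.44) and Tnfrsf4, which encodes OX40, at 151 and 97.5 CPM (-0.63, -0.78 to -0.49). Cd28 was at 149 and 194 CPM (0.39, 0.26 to 0.51). Homing genes split as well. Cxcr3, the receptor for interferon-induced chemokines, was at 21.3 CPM in the lean and 56.4 CPM in the obese cells (1.41, 1.10 to 1.73). Cx3cr1, a receptor of effector cells, was at 41.9 and 20.8 CPM (-1.01, -1.31 to -0.72). Itgb1, integrin beta 1, was at 199 and 281 CPM (0.49). S1pr1, a receptor of recirculating cells, was at 3.81 and 10.98 CPM.

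Among fate transcription factors the activation-induced Nr4a genes were higher in the obese cells. Nr4a1 was at 14.6 and 34.1 CPM (1.22, 0.85 to 1.61) and Nr4a2 at 98.2 and 159 CPM (0.70, 0.55 to 0.85). Klf2, a regulator of exit from tissue, was at 193 and 263 CPM (0.45, 0.34 to 0.56). Eomes, a T-box factor of effector and memory cells, was at 26.7 and 38.9 CPM (0.54, 0.25 to 0.85). Tox, a factor of chronically stimulated cells, was at 133 and 155 CPM (0.23, 0.09 to 0.36), and Tcf7, which marks stem-like cells, at 11.2 and 14.01 CPM. Of 16 such genes tested, 10 were on the high side and 6 on the low side, against 53.1% of all genes tested on the high side. By 1.5-fold or more 4 were higher and 0 lower, against 2.3% and 2.06%. Tbx21, another T-box factor, lay between -0.713 and -0.279 over 16 alternatives, Irf4 between -0.547 and -0.079 and Batf between -0.402 and -0.086. The T cell receptor complex list was nearly level, at 8426 and 8002 CPM with 0 of 12 genes past 1.5-fold, against 4.36% of all genes tested. Cytokine receptors had a median of -0.05 over 10 genes, with 3 on the high side and 7 on the low side. Of these 10 genes, 1 was 1.5-fold or more higher (10%, against 2.3% of all genes tested).

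**Figure D4:**
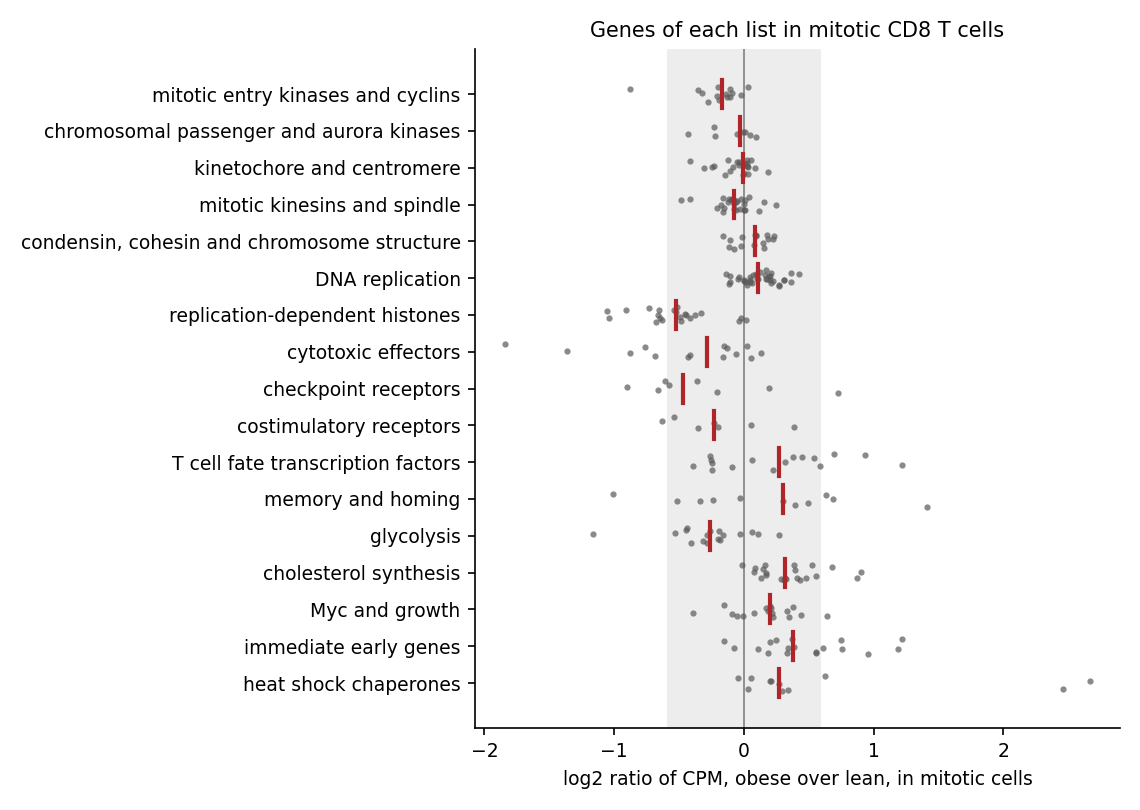
Log2 ratio of obese over lean CPM in member cells (x axis) for each tested gene (grey points) of 17 lists (y axis). Red bars mark list medians, and the grey band holds ratios under 1.5-fold. Histones (median -0.52) and checkpoint receptors (-0.47) lie to the left, immediate early genes (0.38) and cholesterol synthesis (0.32) to the right, and the mitosis lists near 0.

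Glycolysis genes were lower in the obese mitotic cells. The list summed to 8067 CPM in the lean and 6677 CPM in the obese cells (-0.27, -0.29 to -0.25), with 14 of 17 genes tested on the low side and 3 on the high side, against 53.1% of all genes tested on the high side. Ldha, which makes lactate, was at 1142 and 919 CPM (-0.31, -0.36 to -0.26). Aldoa, an aldolase, was at 945 and 714 CPM (-0.41), and Tpi1, triose phosphate isomerase, at 481 and 354 CPM (-0.44). Eno1, an enolase, was the 1 gene past 1.5-fold, at 247 and 110 CPM (-1.17, -1.29 to -1.04), and 1 of 17 (5.88%) is close to the 4.36% of all genes tested. Eno1 has a close copy elsewhere in the genome, and how its reads were divided is uncertain. The glucose transporter Slc2a1 and hexokinase Hk2 were on either side of 0 (-0.03 and 0.11).

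Cholesterol synthesis genes were higher in the obese cells. They summed to 785 CPM in the lean and 966 CPM in the obese members (0.30, 0.24 to 0.36), with 21 of 22 on the high side and 3 past 1.5-fold, against 53.1% and 2.3% of all genes tested. Fdps, which makes farnesyl diphosphate, was at 89.8 and 132 CPM (0.56, 0.40 to 0.72). Cyp51, a sterol demethylase, was at 47.1 and 65.6 CPM (0.48, 0.26 to 0.70). Hmgcs1, at the start of the pathway, was at 37.3 and 49.5 CPM (0.41, 0.16 to 0.67), and the regulator Srebf2 at 47.5 and 62.2 CPM (0.39). Ebp, the exception, was at 109 and 108 CPM.

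The limit on mitochondrial UMIs left out 6 lean and 27 obese cells that otherwise met the rule, so mitochondrially encoded genes are given as a description only. They summed to 19285 CPM in the lean and 24949 CPM in the obese members (0.37, 0.36 to 0.38). Nuclear genes of oxidative phosphorylation were level at 24388 and 23872 CPM (-0.03), with 0 of 56 past 1.5-fold, against 4.36% of all genes tested. Of 17 growth genes downstream of Myc 12 were on the high side, against 53.1% of all genes tested, and 1 (5.88%) passed 1.5-fold, against 4.36%. Ncl, nucleolin, was at 923 and 1199 CPM (0.38, 0.33 to 0.43), and Slc3a2, a subunit of amino acid transporters, at 124 and 193 CPM (0.64, 0.50 to 0.77). Myc itself was at 35.5 and 35.3 CPM.

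Immediate early genes were higher in the obese mitotic cells. They summed to 4624 CPM in the lean and 5728 CPM in the obese cells (0.31, 0.29 to 0.33), with 16 of 18 on the high side and 6 past 1.5-fold, against 53.1% and 2.3% of all genes tested. Junb, an AP-1 subunit, was at 568 and 1102 CPM (0.95, 0.90 to 1.02). Fos was at 211 and 323 CPM (0.61, 0.51 to 0.72) and Ier5 at 82.0 and 139 CPM (0.76, 0.60 to 0.92). Zfp36, which destabilizes cytokine mRNAs, was at 54.5 and 124 CPM (1.19, 0.99 to 1.39). Jund and Klf6 were on the low side, at 1203 and 1080 CPM and at 436 and 415 CPM. Immediate early genes are known to be induced by tissue digestion and sorting too, and the part of cell handling was not tested.

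Of 11 heat shock chaperones 10 were on the high side and 3 past 1.5-fold, against 53.1% and 2.3% of all genes tested. Hspa1a was at 3.61 CPM in the lean and 23.0 CPM in the obese cells (2.67, 1.97 to 3.46), and Hspa1b at 3.81 and 21.0 CPM. Of the 18 lean Hspa1a UMIs 77.8% lay in 2 cells, and in mitotic cells with Gzmc to Gzmn UMIs the ratio was on the other side (-3.09). Without the 2 richest cells of each library the member ratio was 4.20, and over all alternatives run it ranged from 0.39 to 4.20. The constitutive Hspa8 was at 1924 and 1969 CPM. The type I interferon list had a median of -0.21 over 12 genes, 5 on the high and 7 on the low side, but a summed ratio of 0.09, opposite in sign. Ifi27l2a led the sum, with 5201 of 4988151 lean and 11261 of 8564552 obese UMIs, raw counts that were not scaled to the larger obese total. In cells with more late mitosis than replication UMIs 9 of the 12 were on the high side, against 52.7% of all genes tested, and the sum was 0.361. Of the second interferon list, 18 of 20 interferon gamma and antigen presentation genes were on the low side and 2 on the high side, against 53.1% of all genes tested on the high side. Gbp5, a guanylate-binding protein at 19.2 and 12.03 CPM, was the 1 past 1.5-fold (5% of the list, close to the 4.36% of all genes tested). Isg15, a ubiquitin-like protein induced by interferon, was at 57.9 and 35.7 CPM (-0.70). In the type I list 1 of 12 genes tested was lower by 1.5-fold or more (8.33%, against 2.06% of all genes tested).

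Among cell cycle inhibitors Cdkn1a, which encodes p21, was at 75.2 and 50.2 CPM (-0.58, -0.79 to -0.38), and Cdkn1b, which encodes p27, at 38.7 and 48.6 CPM (0.33, 0.08 to 0.58). In the DNA damage list Chek1, a checkpoint kinase of replication, was at 15.04 and 25.3 CPM (0.75). It was the 1 gene past 1.5-fold of 18 tested (5.56%), close to the 4.36% of all genes tested.

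By size alone, the 10 genes highest in the obese member cells were Gm43305, Rpl10-ps3, Zfp36, Rgs2, Smad7, Wdr89, Itpkb, Junb, Emb and Zfp36l2. Rgs2, an inhibitor of G protein signalling, was at 95.2 and 196 CPM (1.04, 0.90 to 1.19), and Smad7, which blocks TGF-beta signalling, at 74.98 and 149 CPM (0.99, 0.82 to 1.16). Gm43305, a processed transcript at chr14:54292443-54297456 (GRCm38), led with 56.7 and 191 CPM (1.75, 1.57 to 1.94). After thinning, a Gm43305 UMI was found in 19.1% (14.04 to 25.1) of lean and 49.1% (43.6 to 54.6) of obese members, and in 2.90% and 9.68% of the naive-featured background. Thinned non-dividing cells differed in the same direction, so such differences were not limited to the members. There the lean and obese shares were 3.30% and 13.1% for Gm43305, 31.5% and 43.7% for Rgs2, and 51.0% and 62.5% for Zfp36. Rpl10-ps3 is a copy of a ribosomal protein gene, so its reads are uncertain.

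The 10 lowest were Terf2ip, AA467197, Gzma, Prf1, Klre1, Eno1, Ly6a, Gm19585, Hist1h2ap and Hist1h2an. Terf2ip, a telomere protein, was at 95.4 and 11.3 CPM (-3.07), but 1 lean cell held 85.9% of its lean UMIs, and without the 2 richest cells of each library it was at 13.0 and 10.7 CPM (-0.28). AA467197 was at 90.01 and 20.9 CPM (-2.11, -2.37 to -1.85) and kept a ratio of -2.01 without such cells. Klre1, an inhibitory lectin receptor of killer cells, was at 72.4 and 28.1 CPM (-1.36, -1.60 to -1.12). Ly6a, the Sca-1 antigen induced by interferon, was at 540 and 250 CPM (-1.11, -1.19 to -1.03). After thinning, a Ly6a UMI was found in 78.9% (72.8 to 84.3) of lean and 57.6% (52.1 to 63.03) of obese members, and in 35.7% and 25.4% of the naive-featured background. In thinned non-dividing cells the obese share was lower too for Ly6a (54.0% and 47.0%), AA467197 (13.3% and 3.58%) and Klre1 (13.7% and 7.36%). Terf2ip (6.31% and 7.57%) and Gzma (6.51% and 7.78%) were on the other side there.

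Several of these lean and obese differences were also present in the other groups of cells, and others were smaller or absent there. For Gzmb, Prf1 and Ifng the summed log2 ratio was -0.73 in the members, -0.48 in mitotic cells with 3 or more Gzmc to Gzmn UMIs, -0.48 in Mcm-rich cells and -0.48 in non-dividing cells. Ifng alone did not follow the sum, at -0.43, -0.01, 0.38 and 0.10 in the same order. The whole effector list was at -0.37, -0.35, -0.22 and -0.11. Checkpoint receptors were at -0.44, -0.14, -0.54 and -0.52, and costimulatory receptors at -0.25, 0.04, -0.02 and 0.06. Cholesterol synthesis was at 0.30, 0.29, 0.28 and 0.20 in the same order, and immediate early genes at 0.31, 0.23, 0.53 and 0.43. Glycolysis was at -0.27 in the members, -0.36 in Mcm-rich and -0.26 in non-dividing cells, but at -0.03 (-0.06 to 0.01) in the Gzmc mitotic cells. The 4 groups come from the same libraries, and the differences between groups were not tested.

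Histone mRNA was scarce outside the mitotic cells, and Mcm-rich cells, chosen for UMIs of Mcm2 to Mcm7 and Pcna, were close to non-dividing cells, so they are not named S-phase cells here. In Mcm-rich cells the list was at 573 and 518 CPM (-0.15, -0.27 to -0.02) and in non-dividing cells at 495 and 439 CPM (-0.17, -0.23 to -0.11), while mitotic cells with Gzmc to Gzmn UMIs held 5372 and 3843 CPM (-0.48, -0.53 to -0.44).

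**Figure D5:**
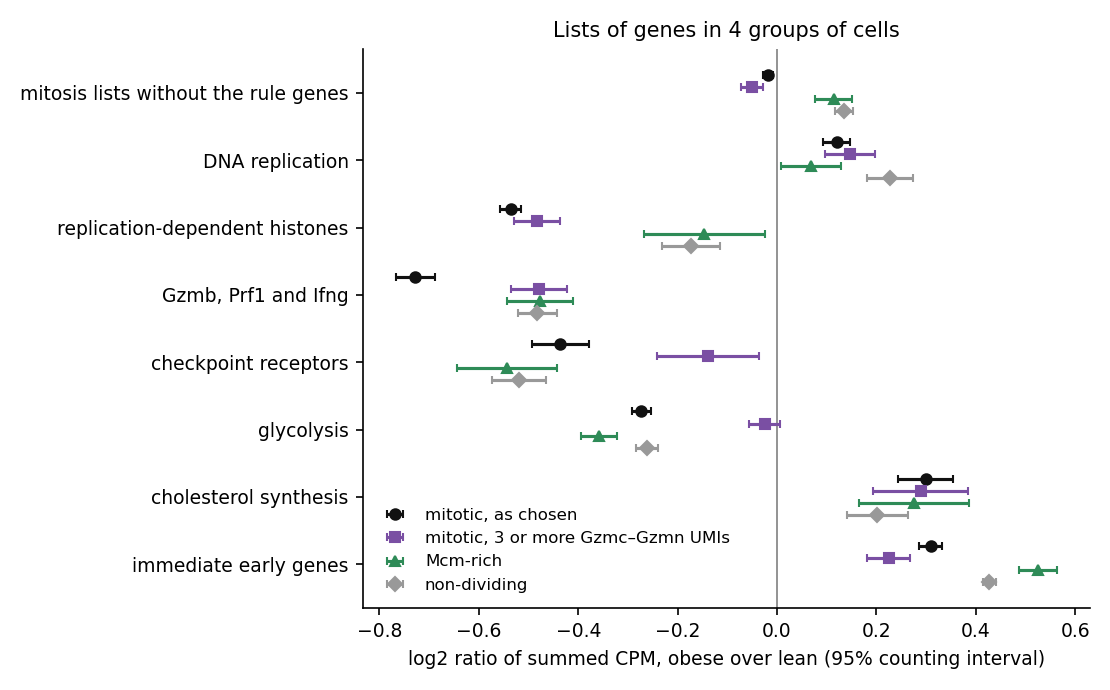
Log2 ratio of obese over lean summed CPM (x axis, 95% counting intervals) for 8 lists (y axis) in member cells (black), mitotic cells with 3 or more Gzmc to Gzmn UMIs (purple), Mcm-rich cells (green) and non-dividing cells (grey). The sum of Gzmb, Prf1 and Ifng lies left of 0 in all 4 groups, although Ifng alone was at 0.38 in Mcm-rich and 0.10 in non-dividing cells, and glycolysis is near 0 in the Gzmc mitotic cells (-0.03).

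Within a library, the members held less Gzmb and Prf1 than their Gzmc-positive mitotic neighbours, while the whole effector list was nearly level (-0.05 in the lean and -0.07 in the obese library). The Gzmc-positive mitotic cells held 2363 CPM of Gzmb in the lean and 1532 CPM in the obese library, above the 1067 and 628 CPM of the members. Members over Gzmc-positive cells were at -0.74 (-0.77 to -0.70) in the lean and -0.99 (-1.04 to -0.93) in the obese library for the sum of Gzmb, Prf1 and Ifng. Ifng alone was at 0.38 (0.30 to 0.46) in the lean and -0.04 (-0.16 to 0.08) in the obese library. Since granzyme genes define that split and lie together on chromosome 14, Gzmb is close to what the rule used. The mitosis genes were higher in the members, by 0.29 and 0.32 on the log2 scale. Both groups passed the same lower limit on UMIs of Top2a, Mki67 and Birc5, and the members held fewer UMIs per cell. The limit thus asked for a larger share of a member's UMIs, so these values are a description. Per cell, the median sum of Top2a, Mki67 and Birc5 was 1622 CPM in lean members and 1046 CPM in lean Gzmc-positive cells. In the obese library it was 1533 and 933 CPM. Against Mcm-rich cells the sum of Gzmb, Prf1 and Ifng was at -0.01 (-0.06 to 0.05) in the lean and -0.26 (-0.31 to -0.20) in the obese library. The lower obese sum came from Ifng (-0.65, -0.73 to -0.57), while Gzmb was at 0.11 (0.02 to 0.19) and Prf1 at -0.02 (-0.20 to 0.16).

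T cell receptor beta variable segments differed between the libraries' members. Trbv2 made up 31.2% of 247 Trbv UMIs in the lean members, in 29 of the 128 cells with any Trbv UMI. In the obese members Trbv1 made up 25.4%, Trbv2 21.0% and Trbv13-1 17.2% of 291 Trbv UMIs. The lean Gzmc-positive mitotic cells were led by Trbv2 too (47.7% of 174), and the obese ones by Trbv13-1 (59.3% of 27). Trbv2 also led in non-dividing cells, with 28.2% of 716 Trbv UMIs in the lean and 16.2% of 439 in the obese library. These segments were picked after their values were seen, cells of 1 clone share a segment, and no clonotypes were analysed here.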

How the data were processed

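Single-cell 3′ RNA libraries of sorted CD8+ TIL, 1 from lean and 1 from obese mice, were analysed. The authors made the matrices of UMI counts with Cell Ranger 6.0.2 (per the submitters' processing notes, genome build mm10). The deposited counts were used as they stand, after rows that shared a symbol were summed. The lean matrix held 2697 cells and 33904480 UMIs and the obese matrix 2623 cells and 38869488 UMIs. The mitochondrial and UMI limits left 2456 and 2289 cells.

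Members and gene lists were chosen with earlier results of these data known, so no list is independent evidence. Within each group of cells, UMIs were added up per gene and expressed as CPM with exact Poisson intervals. Ratios carry exact conditional binomial (Clopper-Pearson) intervals, and shares Clopper-Pearson intervals, all at 95%. Genes with a mean of 10 CPM or more were tested by size alone (1.5-fold). The genes named were those of the rule and the lists, the 10 highest and 10 lowest ratios among genes with a mean of at least 50 CPM and 20 UMIs in each library, and the 10 highest over non-dividing cells with at least 100 CPM in both libraries. Doublets were kept: Scrublet in scanpy 1.11.5 called 3 lean and 0 obese cells, and none was a member. Leaving out the highest 5% of its scores was an alternative. Totals without mitochondrial and ribosomal protein genes, edgeR 4.0.16 and DESeq2 1.42.0 factors, other limits and thinning were also tried. No replicates exist, so no replicate could be left out. Ratios and intervals were tried on simulated Poisson counts, the model that the intervals assume. These counts hold no spread between cells or libraries, so the trial checks the calculation only. Motif letters were searched in RefSeq promoters, and 22 histone genes found no entry there. Some genes of the lists entered list sums and counts but are not reported here singly.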

Additional observations from a re-analysis of the deposited data

Results flagged for a closer look

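Some log2 ratios of obese over lean had opposite signs in the members and in another group of cells, beyond counting error on each side. With 1 library per diet these differences were not tested. Ifng was at -0.43 in the members but at 0.38 (0.27 to 0.49) in Mcm-rich cells (10 or more UMIs over Mcm2 to Mcm7 and Pcna) and 0.10 (0.04 to 0.16) in non-dividing cells. Its level in obese cells was 806 CPM in Mcm-rich cells, 513 CPM in the members and 473 CPM in non-dividing cells. Gzma was at -1.84 in the members and 1.38 (0.995 to 1.78) in Mcm-rich cells, and in the members it rested on 2 lean cells. Costimulatory receptors were at -0.25 in the members and 0.061 in non-dividing cells, and memory and homing genes at 0.19 in the members and -0.16 in mitotic cells with Gzmc to Gzmn UMIs.

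Mitosis genes showed the same kind of contrast at small size. Over the mitosis lists the ratio was -0.02 in the members, 0.11 in Mcm-rich and 0.14 in non-dividing cells, where these genes are scarce. For mitotic entry genes it was -0.16 in the members, 0.29 in Mcm-rich and 0.26 in non-dividing cells. Kinesins and spindle genes were at -0.06 in the members, 0.10 in Mcm-rich and 0.15 in non-dividing cells. The anaphase-promoting complex list was at -0.08 in the members and 0.092 in non-dividing cells, and nuclear oxidative phosphorylation at -0.03 in the members and 0.048 in the Gzmc mitotic cells.

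Cells of 50000 or more UMIs were outside the comparisons, and 11 lean and 71 obese cells among them met the other terms of the rule.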

How the results depend on the processing

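No paired analysis was possible because each diet had 1 library, and no replicate could be left out. Reference log2 ratios of obese over lean were -0.02 for the mitosis lists, 0.12 for DNA replication, -0.54 for histones, -0.73 for the effectors Gzmb, Prf1 and Ifng summed, -0.44 for checkpoint receptors, -0.27 for glycolysis and 0.31 for immediate early genes. The last 6 kept their direction under every alternative run, and the mitosis lists did not. Gzmb, Prf1 and Ifng, 3 of the cytotoxic effectors in mitotic cells, are given below as the sum of the 3 effectors. The whole list of cytotoxic effectors, summed, was at -0.371, with a range of -0.406 to -0.132 over 15 alternatives. The cause of these changes was not tested. With a sum of 5 or more UMIs of Top2a, Mki67 and Birc5, the mitotic share was 11.2% of lean cells and 18.7% of obese cells. The ratio came to -0.685 for the 3 effectors and 0.338 for immediate early genes. With a sum of 20 or more UMIs, the mitotic share was 6.47% of lean cells and 10.1% of obese cells. Ratios then were 0.043 for the mitosis lists, -0.488 for histones and -0.355 for glycolysis. Signs changed to 0.016 for mitotic kinesins and spindle and 0.034 for Cd160. With 0 UMIs of Gzmc to Gzmn, the mitotic share was 6.92% of lean cells and 13.1% of obese cells. Ratios then were -0.030 for the mitosis lists, -0.595 for histones, -0.603 for the 3 effectors and -0.234 for glycolysis. Without a limit on Gzmc to Gzmn, the mitotic share was 13.3% of lean cells and 16.3% of obese cells. There the ratio was 0.052 for the mitosis lists, -0.463 for histones, -0.899 for the 3 effectors and 0.340 for immediate early genes. Signs changed to 0.012 for mitotic kinesins and spindle, 0.015 for Ccna2 and 0.003 for Cd160. Under 30000 UMIs per cell, the mitotic share was 7.31% of lean cells and 10.4% of obese cells. There the ratio was 0.008 for the mitosis lists, -0.475 for histones, -0.785 for the 3 effectors, -0.503 for checkpoint receptors, -0.346 for glycolysis and 0.388 for immediate early genes. Signs changed to 0.003 for mitotic kinesins and spindle, 0.003 for Ctsw and 0.026 for Id2. Genes past 1.5-fold numbered 461. With cells thinned to 5000 UMIs, the mitotic share was 12.8% of obese cells. Ratios then were 0.105 for the mitosis lists, -0.426 for histones, -0.811 for the 3 effectors, -0.511 for checkpoint receptors and -0.328 for glycolysis. Signs changed to 0.050 for chromosomal passenger and aurora kinases, 0.025 for kinetochore and centromere, 0.054 for anaphase-promoting complex and substrates, 0.107 for mitotic kinesins and spindle, 0.141 for Ccna2, 0.087 for Cenpf, 0.051 for Nusap1 and 0.042 for Pclaf. Without an upper UMI limit, chosen after seeing the data, the mitotic share was 16.9% of obese cells. Ratios then were -0.098 for the mitosis lists, 0.087 for DNA replication, -0.732 for histones, -0.171 for glycolysis and 0.252 for immediate early genes. Signs changed to -0.031 for condensin, cohesin and chromosome structure. In members with more late mitosis than replication UMIs, the ratio was 0.086 for the mitosis lists, -0.461 for histones, -0.538 for checkpoint receptors, -0.385 for glycolysis and 0.378 for immediate early genes. Signs changed to 0.050 for chromosomal passenger and aurora kinases, 0.084 for kinetochore and centromere, 0.025 for anaphase-promoting complex and substrates, 0.053 for mitotic kinesins and spindle, 0.129 for Ccna2, 0.971 for Ccr7, 0.233 for Cd160, 0.044 for Cdk1, 0.237 for Cenpf, -0.018 for Ctla4, 0.129 for Ctsw, -0.052 for Mcm3, 0.071 for Nusap1 and -0.009 for Stard4. Genes past 1.5-fold numbered 807. Without the highest 5% of Scrublet scores, the ratio was 0.005 for the mitosis lists, 0.154 for DNA replication, -0.793 for the 3 effectors and 0.278 for immediate early genes. Signs changed to 0.852 for Gzma. With totals free of mitochondrial and ribosomal protein genes, the ratio was 0.003 for the mitosis lists, -0.514 for histones and -0.251 for glycolysis. As a mean over cells, the ratio was -0.007 for the mitosis lists, 0.076 for DNA replication, -0.507 for histones, -0.649 for the 3 effectors, -0.520 for checkpoint receptors, -0.227 for glycolysis and 0.252 for immediate early genes. Signs changed to 0.019 for nuclear oxidative phosphorylation. With all genes of 10 CPM or more 299 passed 1.5-fold, against 69 at a mean of 50 CPM or more and 5232 with no such filter, since fewer or more genes were then counted. A change of sign is listed above only where the reference interval left out 0: 20 such changes in 13 genes over 3708 values of 232 genes, and 13 in 6 lists over 359 values of 24 lists. The reference ratios listed first, such as that of the mitosis lists, are outside these counts, and the changed signs of the mitosis lists are given above by setting. Counting every change, also of ratios near 0, there were 214 in 80 genes and 34 in 10 lists, among them the spindle checkpoint (-0.059, and 0.170 in late members). With edgeR and DESeq2 factors the sign changed in 1 gene and 1 list, both near 0. Ratios of genes with few UMIs are limited by depth, and those of Terf2ip and Gzma by 1 or 2 cells.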
